A study of Mus musculus with 24 samples.

Results

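Vesicle coat, Rab and SNARE genes build the machinery that moves membrane between the endoplasmic reticulum, the Golgi, endosomes and the cell surface. They were taken as all genes whose symbol in the platform annotation begins with Rab, Vps, Snx, Stx, Arf or Ap and a digit, or belongs to the Sec13 to Sec31, Cop, Vamp, Tmed, Golg, Trappc or Exoc families, with Scfd1 and Tgoln1 added by name. Only probes carrying exactly 1 symbol were used. This gave 157 of the 6970 genes measured, 84 of 3838 on slide type 1 (98 probes) and 93 of 4075 on slide type 2 (102 probes), with 20 genes on both.

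In the study, mouse embryos in culture received a heat shock of 15 min at 43 °C and were collected after 1 h back at 37 °C, and their total RNA was compared on arrays with that of control embryos held at 37 °C. The 24 arrays, each with heat-shocked and control RNA in its 2 channels, come from 3 numbered treatments on 2 slide types with different probes. Each treatment has 4 arrays per slide type. Heat-shocked RNA was in channel 1 on some of them, called order 1 here, and in channel 2 on the others, called order 2. The sources used here state neither strain nor embryonic stage.

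Values are log ratios whose base and numerator are not stated. A value of 1 would be 2-fold on a base 2 scale and 2.72-fold on a natural log scale. Signs were set as though channel 1 were the numerator. A positive value then means more RNA after heat shock, but with channel 2 as numerator it would mean less, so results are given by side. For orientation, the Hsp110 chaperone Hsph1 lay on the positive side at 2.28 ± 0.50, as did the small heat shock protein Hspb1 at 2.23 ± 0.05, and the endoplasmic reticulum chaperone Hspa5, whose 3 probes ranged from −1.17 to −0.34, lay on the negative side at −0.81 ± 0.22 (SD, n = 3 treatments, as for all means below). Each treatment is the mean of its 4 arrays, centred on each array's median, with the sign of order 2 turned. Whether the treatments came from separate litters is not stated. The limma p-values measure only the spread between these treatments that is left after both orders are averaged, which may be technical. The RNA comes from whole embryos, where fewer cells of a type and less RNA per cell cannot be told apart.

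In the secretory pathway, vesicles coated with COPII leave the endoplasmic reticulum for the Golgi, and COPI vesicles run back and between Golgi layers. Adaptor complexes with clathrin, sorting nexins and the retromer sort cargo at the trans-Golgi network and endosomes. Small GTPases of the Arf and Rab families mark each membrane, tethers such as TRAPP, the exocyst and the golgins catch the incoming vesicle, and SNARE proteins with their Sec1/Munc18 partners drive fusion.

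The largest values among the members on slide type 1 belonged to 4 genes with unlike places in this route, all on the side of the heat shock proteins. They were Tgoln1, a membrane protein of the trans-Golgi network that cycles to the cell surface; Scfd1, the Sec1/Munc18 protein that works with syntaxin 5 between endoplasmic reticulum and Golgi; Tmed5, a p24 cargo receptor of early secretory vesicles; and Snx15, an endosomal sorting nexin. The bases just before the starts of the first 3 are shown because these are the members with the largest values, a choice made after the values were seen. Snx15 had no entry in the promoter table used here. The 250 bases upstream, from RefSeq on GRCm38.p6 and read 5′ to 3′ on the gene's own strand, are at chr6:72617001-72617250 (minus strand) for Tgoln1, chr12:51377263-51377512 (plus strand) for Scfd1 and chr5:108132621-108132870 (minus strand) for Tmed5.
Tgoln1: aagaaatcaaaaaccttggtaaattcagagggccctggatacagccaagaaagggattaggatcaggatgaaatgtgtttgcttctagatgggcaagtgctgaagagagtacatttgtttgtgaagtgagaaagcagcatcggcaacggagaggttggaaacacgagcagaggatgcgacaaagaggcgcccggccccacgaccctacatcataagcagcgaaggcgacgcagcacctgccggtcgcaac
Scfd1: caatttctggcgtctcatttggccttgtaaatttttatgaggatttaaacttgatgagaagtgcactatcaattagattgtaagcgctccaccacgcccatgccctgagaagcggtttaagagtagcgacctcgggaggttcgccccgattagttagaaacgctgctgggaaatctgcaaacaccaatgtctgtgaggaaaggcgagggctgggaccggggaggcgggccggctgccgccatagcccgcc
Tmed5: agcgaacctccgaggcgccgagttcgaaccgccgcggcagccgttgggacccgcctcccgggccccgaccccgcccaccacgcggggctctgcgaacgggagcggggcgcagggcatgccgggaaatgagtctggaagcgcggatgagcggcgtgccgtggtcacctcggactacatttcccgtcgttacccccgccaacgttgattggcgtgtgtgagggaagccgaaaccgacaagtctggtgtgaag

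Promoter windows of 300 bases (250 before and 50 after the start) were searched on both strands for known motifs. The heat shock element was found in 0 of the 129 members with an entry and in 179 of 27025 genes (0.662%). In this paragraph all genes are these 27025 with a RefSeq promoter entry, not only the 6970 measured. The shares of members and of all genes are thus from unlike sets, and no share over the measured genes was taken. The endoplasmic reticulum stress element was in 0 of 129 members and 0.137% of all genes. The element TGACGTGG, bound by factors of the unfolded protein response, was in 5 of 129 members (3.88%), namely Arf1, Copb2, Sec24d, Stx5a and Scfd1, and in 0.714% of all genes. In Scfd1 the match CCACGTCA lies at bases 33 to 40 of the gene, past the stretch shown. The CLEAR element of lysosomal genes was in 6 members (4.65%, against 0.37% of all genes) and the cyclic AMP element TGACGTCA in 4 (3.1%, against 2.03%). Of the 38 members that passed limma's test on either slide type, 33 had an entry, and among those 33 Scfd1 and Cope held a match to one of these motifs. Cope, the epsilon subunit of the COPI coat, is shown because its upstream window (chr8:70302517-70302766, plus strand) holds TGACGTCA, in capitals, at positions −210 to −203 relative to the start. These are matches of letters and not shown to be sites.
Cope: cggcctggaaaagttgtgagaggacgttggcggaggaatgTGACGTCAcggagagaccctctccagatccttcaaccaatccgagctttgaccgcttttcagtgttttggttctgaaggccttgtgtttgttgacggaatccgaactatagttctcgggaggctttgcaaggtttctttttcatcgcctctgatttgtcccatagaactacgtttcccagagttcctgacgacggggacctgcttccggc

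Tgoln1 had 1.28, 1.37 and 1.62 in treatments 1, 2 and 3, and its 12 arrays ran from 1.15 to 1.86. Its mean of 1.42 ± 0.17 (limma adjusted p = 3.8e-06) was the 3rd highest of the 3838 genes of that slide type. Every array lay on the positive side in both channel orders, with means of 1.40 in order 1 and 1.44 in order 2. The 1 probe on slide type 2 gave a smaller value on the same side, 0.32 ± 0.10 (limma adjusted p = 0.000465), with 0.30, 0.43 and 0.23 by treatment. There Tgoln1 had 0.51 in order 1 and 0.13 in order 2, and arrays from −0.18 to 0.93, of which 10 were positive. Tgoln1 and Scfd1 entered the set by name, so their size is a description.

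Scfd1 had 1.14, 1.44 and 1.21 by treatment, with arrays from 0.94 to 1.74. Its mean of 1.26 ± 0.16 (limma adjusted p = 3.8e-06) was the 4th highest of that slide type, and all 12 arrays were positive. It rests on 1 probe of slide type 1. By channel order it had 1.43 in order 1 and 1.09 in order 2.

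Tmed5 had 0.59, 0.76 and 0.61, with all 12 arrays between 0.34 and 1.08. The mean was 0.65 ± 0.09 (limma adjusted p = 9.88e-05). Snx15 had 0.49, 0.58 and 0.51, with arrays from 0.27 to 0.88 and a mean of 0.53 ± 0.05 (limma adjusted p = 0.000236). For both genes the mean was higher in order 1, at 0.83 against 0.47 in order 2 for Tmed5 and at 0.69 against 0.36 for Snx15. In order 2 alone, Snx15 missed the threshold (limma adjusted p = 0.0517).

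**Figure D1:**
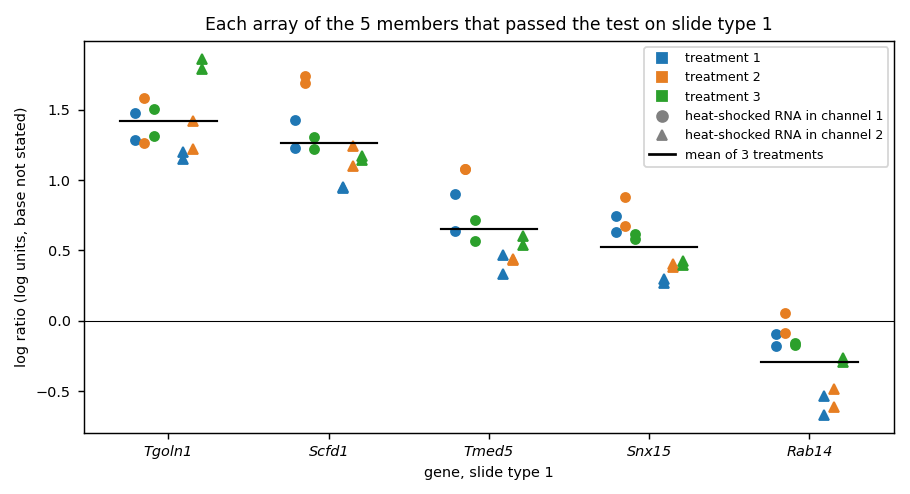
Log ratio (log units, base not stated) of each of the 12 arrays of slide type 1 for the 5 members that passed the test there, by treatment (colour) and channel order (circles and triangles), with the mean of 3 treatments as a bar. All arrays of Tgoln1, Scfd1, Tmed5 and Snx15 lie above 0, whereas Rab14 has 1 array above 0.

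The only member called on the negative side of slide type 1 was Rab14, a GTPase of early endosomes and the Golgi. It had −0.37, −0.28 and −0.22 by treatment, a mean of −0.29 ± 0.07 (limma adjusted p = 0.00945), and 2 probes at −0.31 and −0.27. The value was −0.10 in order 1 and −0.48 in order 2. The call was lost in order 1 alone, on the arrays whose slide code ends in a suffix (its meaning is not stated), without treatment 1 and without centring, where the value was 0.01. On slide type 1, 4 of 84 members (4.76%) were thus called positive and 1 (1.19%) negative, against 5.73% and 5.65% of all genes (11.4% on either side). These shares are not above the background. Without centring the counts were 4 positive and 0 negative, and in a fit of single arrays with the replicate block 5 positive and 7 negative. Over all 3838 genes they were 263 and 5 without centring, and 289 and 473 with the replicate block.

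Without those 4 positive genes, the remaining 80 members of slide type 1 ran from −0.29 to 0.15, with a median of −0.05 against −0.04 over all genes. None of the 6 COPII members, 4 COPI members, 14 adaptor members, 12 Vps members, 6 SNAREs and 5 tethers passed limma's test. At an unadjusted p under 0.05 the adaptors gave 2, the Vps members 1 and the tethers 1, all negative, and the replicate block fit called 2 adaptors. Of all 3838 genes, 605 were negative at that unadjusted p, and 473 were called negative by the replicate block fit. Values short of the threshold included those of the adaptor subunit Ap3s2, at −0.15 ± 0.06, the sorting nexin Snx17, which recycles receptors, at −0.19 ± 0.07 (limma adjusted p = 0.0642), and the p24 protein Tmed9, at −0.18 ± 0.12. Rab1a and Rab1b, which act between endoplasmic reticulum and Golgi, had −0.17 ± 0.11 and −0.18 ± 0.13 without passing. In order 1 these 2 had 0.20 and −0.15, and in order 2 −0.55 and −0.20. On the positive side, Rab3ip had 0.15 ± 0.09 and Rab15 0.14 ± 0.09, also without passing.

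**Figure D2:**
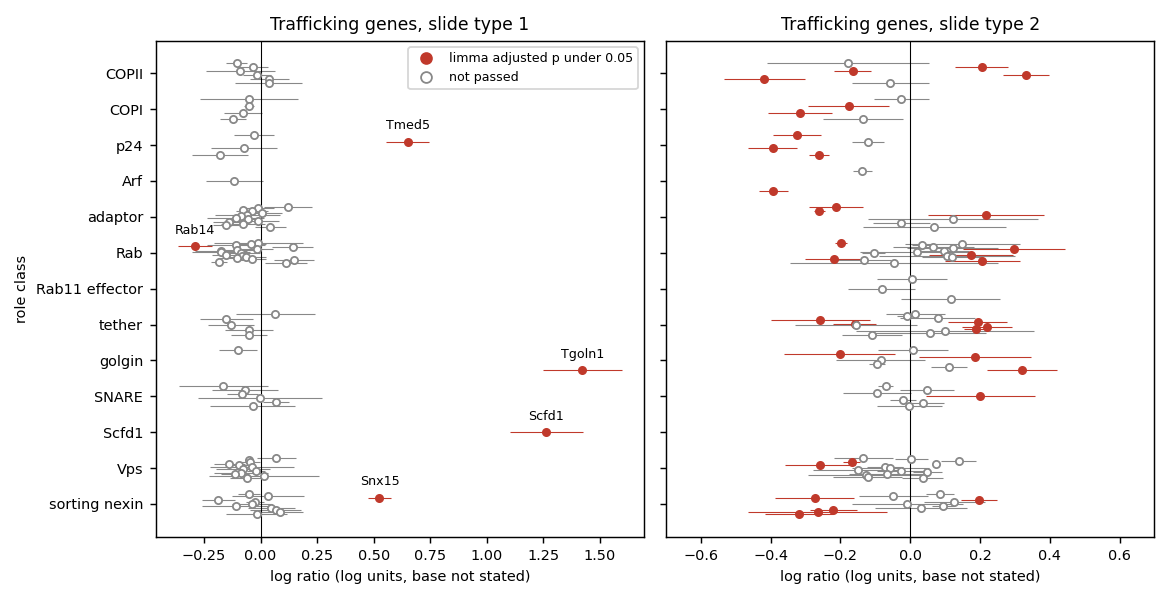
Mean log ratio (log units, base not stated) with SD over 3 treatments for every member, by role class, on slide type 1 (left) and slide type 2 (right, narrower scale). Filled red points passed limma's test: 5 members on slide type 1, with 4 of them at 0.53 or more, and 34 on slide type 2, all between −0.42 and 0.33.

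On slide type 2 many more genes of all kinds passed, at small sizes. Of 93 members, 13 (14.0%) were called positive and 21 (22.6%) negative, against 18.5% and 31.9% of all genes. On either side it was 34 members (36.6%), below the 50.4% of all genes called. None exceeded 0.5 units in size, whereas 140 of 4075 genes did. These calls depend on averaging the channel orders after centring. With either channel order alone 0 members were called by limma (2 positive and 3 negative at an unadjusted p under 0.05 in order 1, and 12 and 11 in order 2), and without centring also 0 (8 and 3). Few genes of any kind passed in these settings, namely 50 of 4075 in order 1, 24 in order 2 and 141 without centring. With arrays centred on probes with 1 symbol the split turned to 27 positive and 15 negative, and that of all genes turned likewise, to 1249 positive and 861 negative. The counts were 4 positive and 12 negative without treatment 1, beside 293 and 934 of all genes. Without treatment 3 they were 7 positive and 19 negative, beside 380 and 1050. Without treatment 2, 39 members were called on either side, beside 983 positive and 1226 negative calls over all genes.

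The coats of the early secretory pathway lay on both sides there. The p24 proteins, which bind cargo and coats, gave 3 negative calls among 4. Tmed4 had −0.48, −0.36 and −0.35 (mean −0.39 ± 0.07, limma adjusted p = 6.02e-05), Tmed10 −0.32 ± 0.07, and Tmed7 −0.26 ± 0.03, with −0.07 ± 0.15 for Tmed7 on slide type 1. In order 1 of slide type 2, Tmed4, Tmed10 and Tmed7 had −0.13, 0.03 and 0.05, and in order 2 −0.66, −0.68 and −0.57. Tmed3 at −0.12 ± 0.05 did not pass. Tmed5, on the positive side, has its probe on the other slide type. Of 4 COPI members 2 were called, both negative. Copg1, a gamma subunit, had −0.29, −0.42 and −0.24, a mean of −0.32 ± 0.09 (limma adjusted p = 0.000479), and its paralog Copg2 −0.14 ± 0.11 without passing. By channel order Copg1 had −0.10 in order 1 and −0.53 in order 2. On slide type 1 Copg1 had −0.05 ± 0.02 without passing. Cope had −0.18 ± 0.12, with its 2 probes at −0.28 and −0.07, and missed the threshold when treatment 1 or treatment 2 was left out.

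The COPII group split within one gene family. Sec24c, a cargo-binding subunit of the inner coat, had −0.52, −0.44 and −0.29, and its mean of −0.42 ± 0.12 was the lowest of the members on slide type 2 (limma adjusted p = 5.53e-05). Its paralog Sec24a had 0.26, 0.37 and 0.37, and its mean of 0.33 ± 0.06 was the highest (limma adjusted p = 0.000267). These 2 were picked as the ends of the members, so the distance between their treatments follows from that choice. Their single arrays overlap, from −1.12 to 0.34 for Sec24c and from −0.52 to 1.25 for Sec24a. Each value comes mainly from one channel order: Sec24c had −0.11 in order 1 and −0.73 in order 2, and Sec24a 0.65 in order 1 and 0.02 in order 2. On slide type 1, Sec24a had 0.04 ± 0.09, and Sec24d 0.04 ± 0.15. Sec22b, a SNARE of the same step although named with this family, had 0.20 ± 0.08 on slide type 2, and Sec23ip, a COPII-binding protein, −0.17 ± 0.05. On slide type 1 Sec22b lay on the other side, at −0.09 ± 0.15, without passing. Sec31a, of the outer cage, had −0.06 ± 0.11, and Sec13, its partner, −0.11 ± 0.05 on slide type 1, both without passing.

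Among the GTPases, Arf4, a Golgi Arf, had −0.43, −0.40 and −0.35 (mean −0.39 ± 0.04, limma adjusted p = 5.39e-05), and Arf3 −0.14 ± 0.03 without passing. By channel order Arf4 had −0.10 in order 1 and −0.69 in order 2. Of 16 Rab members, 3 were called positive and 2 negative. Rab27a, of regulated exocytosis, had 0.30 ± 0.15, Rab8a, of export to the cell surface, 0.21 ± 0.11, and Rab3b, another Rab of exocytosis, 0.17 ± 0.12. Rab6a of the Golgi had −0.22 ± 0.08 and Rab11a of recycling endosomes −0.20 ± 0.02. On slide type 1 Rab11a had −0.04 ± 0.07 without passing. The value of Rab6a differed by channel order, at 0.28 in order 1 and −0.72 in order 2. Rab5a, of early endosomes, had 0.12 ± 0.09 and Rab7, of late endosomes, −0.13 ± 0.08, both without passing. Rab11b did not pass either (0.15 ± 0.17), and its 2 probes disagreed, at −0.18 and 0.48.

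Among the 21 negative calls, the 3 with the smallest gap between channel orders were endosomal sorting genes. Snx8, which acts between endosomes and the trans-Golgi network, had −0.43, −0.28 and −0.25, a mean of −0.32 ± 0.10 (limma adjusted p = 0.000467), with −0.32 in either order. Snx4, of endosome recycling, had −0.22 ± 0.07, with −0.22 and −0.23 by order and no positive array. Vps35, the scaffold of the retromer, had −0.26 ± 0.10, with −0.32 and −0.20 and likewise no positive array. The gap was wider in other genes of this group. The retromer subunit Vps29 had −0.17 ± 0.02, at 0.06 in order 1 and −0.40 in order 2, and the third subunit, Vps26a, 0.00 ± 0.05. Snx2 and Snx5, which work with the retromer, had −0.27 ± 0.11 and −0.27 ± 0.20 on slide type 2 (−0.16 and −0.12 in order 1, −0.39 and −0.41 in order 2), but −0.03 ± 0.04 and 0.07 ± 0.11 on slide type 1, without passing there. Snx21 lay on the positive side at 0.20 ± 0.05, at −0.23 in order 1 and 0.62 in order 2. Of 15 Vps members, the other 13 did not pass, among them Vps72, which despite its name is a chromatin protein, at −0.12 ± 0.10.

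The adaptor complex AP-1, of the trans-Golgi network, had members on both sides. Its large subunits Ap1g1 and Ap1b1 had −0.26 ± 0.02 and −0.21 ± 0.08, and its small subunit Ap1s2 0.22 ± 0.17. In order 1 these 3 had 0.07, −0.05 and 0.01, and in order 2 −0.59, −0.38 and 0.42. On slide type 1 Ap1g1 had −0.01 ± 0.07 without passing. The tethers lay on both sides as well, in their means over both orders. Exoc6b of the exocyst had −0.26 ± 0.14 and Trappc1 of TRAPP −0.16 ± 0.06, while Trappc11 had 0.22 ± 0.07, Trappc12 0.19 ± 0.04 and the exocyst subunit Exoc8 0.19 ± 0.08. In order 1 these 5 had −0.11, −0.06, −0.12, −0.12 and 0.14, and in order 2 −0.40, −0.26, 0.57, 0.50 and 0.24. Among golgins, Golga2 (GM130) of the cis-Golgi had −0.20 ± 0.16 and Golga3 0.18 ± 0.16, with 0.05 and −0.08 in order 1 and −0.45 and 0.45 in order 2. Of 7 SNAREs 1 was called, Stx3, a plasma membrane syntaxin, at 0.20 ± 0.16, with 0.06 in order 1 and 0.34 in order 2. On slide type 1 Stx3 lay on the other side, at −0.07 ± 0.15, without passing. Stx5a, the Golgi syntaxin that partners Scfd1, had −0.02 ± 0.04 without passing.

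**Figure D3:**
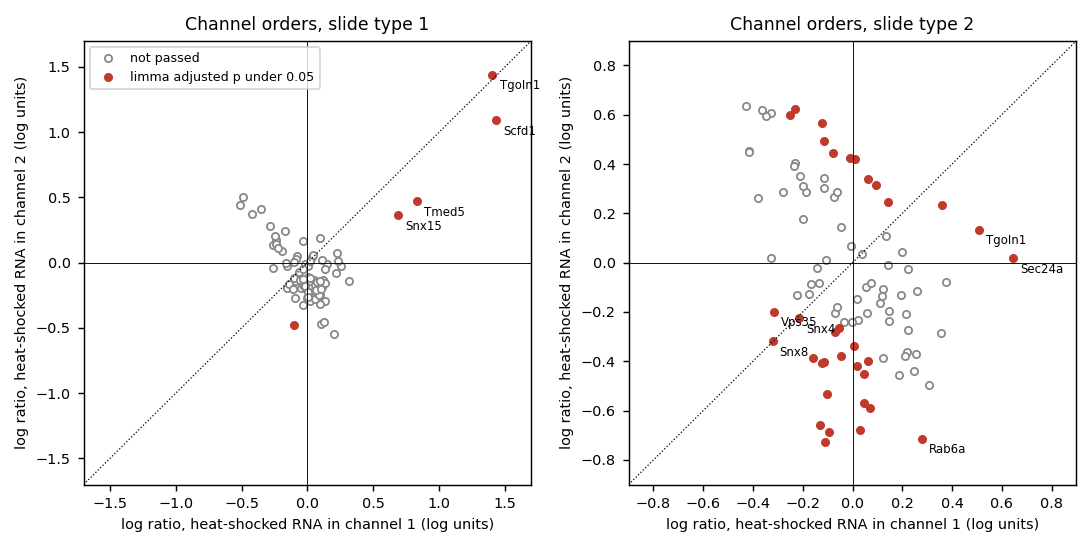
Mean log ratio (log units, base not stated) of each member in order 1 (horizontal, heat-shocked RNA in channel 1) and order 2 (vertical, heat-shocked RNA in channel 2), on slide type 1 (left) and slide type 2 (right). Filled red points passed limma's test, and the dotted line marks equal values. All 5 called members of slide type 1 lie on the same side in both orders, and 20 of 34 on slide type 2 do.

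On slide type 1 all 5 called members lay on the same side in both orders, as did 98.2% of all called genes. On slide type 2 this held for 20 of 34 called members (58.8%) and 61.9% of called genes. Of those 34, 29 had the larger size in order 2, and the median gap between orders was 0.43 units, beside a largest mean of 0.42 in size. For Sec24a on slide type 2, arrays without the suffix had 0.21, 1.24 and 0.64 in order 1 for treatments 1, 2 and 3. In order 2 they had 0.34, −0.52 and 0.05, while the SD over treatments, with both orders averaged, was 0.06. Averaging can thus cancel opposed differences between treatments, and a small SD on slide type 2 need not mean that arrays agreed. The part of the channel in these results was not tested.

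Of the 20 members on both slide types, Tgoln1 alone was called on both, on the same side. A further 10 of the 20 were called on slide type 2 only, and 9 on neither. Of all 943 genes on both slide types, 62 (6.57%) were called on both on the same side, 426 (45.2%) on slide type 2 only and 408 (43.3%) on neither. The mean had the same sign on both for 11 of 20 members (55.0%) and 575 of 943 genes (61.0%). Rab8a had −0.18 ± 0.03 on slide type 1 (limma adjusted p = 0.0575), on 1 probe, and 0.21 ± 0.11 on slide type 2 over 2 probes at 0.19 and 0.22 (limma adjusted p = 0.00981). Probes differ between slide types, and no test of the difference was made.

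**Figure D4:**
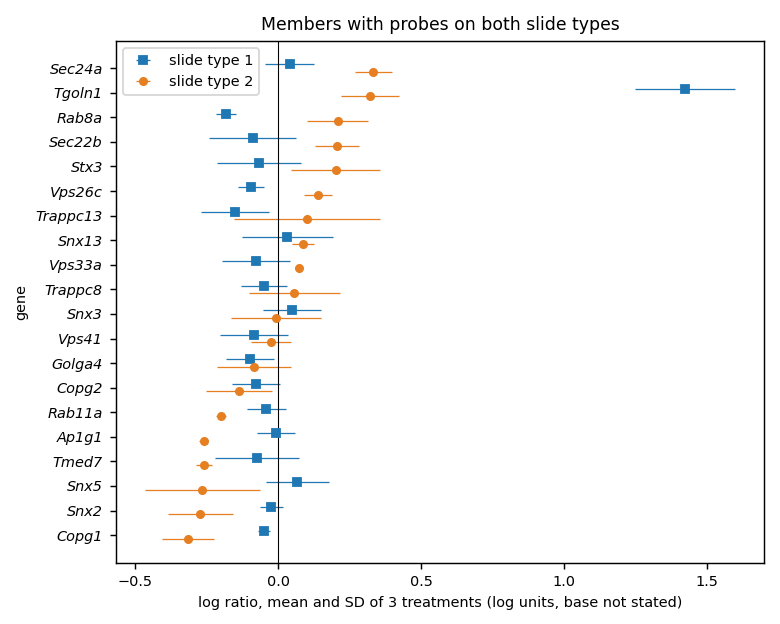
Mean log ratio and SD of 3 treatments (log units, base not stated) for the 20 members with probes on both slide types, ordered by the value on slide type 2. Tgoln1 stands apart on slide type 1 at 1.42 and has 0.32 on slide type 2, and the other members lie between −0.32 and 0.33 on either.

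Further genes of vesicle traffic outside these families were counted as well. None of 58 passed limma's test on slide type 1, where 11.4% of all genes did. At an unadjusted p under 0.05, 1 was positive and 10 were negative, beside 316 and 605 of all 3838 genes. The replicate block fit gave 1 positive and 7 negative calls there, and called 19.9% of all genes. Of 62 on slide type 2, 7 (11.3%) were called positive and 27 (43.5%) negative, against 18.5% and 31.9% of all genes, with a median of −0.10 against −0.05 over all genes. The negative end held the pseudokinase Nrbp1 at −0.51 ± 0.15, the COPI regulator Arfgap2 at −0.44 ± 0.12 and the GTPase Arl2 at −0.40 ± 0.15. Cltc, the clathrin heavy chain, had −0.28 ± 0.10, and Sar1a, the GTPase that starts the COPII coat, −0.23 ± 0.02. On the positive side were Arcn1, the delta subunit of COPI, at 0.24 ± 0.06, the SNARE Bet1l at 0.23 ± 0.06 and Syt11, a synaptotagmin, at 0.20 ± 0.01.

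Ratios give no expression level, so the embryo label could not be checked against the level of marker genes. Of marker lists for single tissues, 0 of 4 yolk sac endoderm genes on slide type 1 and 0 of 4 primitive erythroid genes on slide type 2 passed limma's test (1 erythroid gene at an unadjusted p under 0.05). Of all genes, 11.4% passed on slide type 1 and 50.4% on slide type 2. Of 2 neural genes 1 passed, the neuronal tubulin Tubb3 at −0.21 on slide type 1, with −0.003 in order 1 and −0.42 in order 2. The part of these tissues in the results was not tested. Across all probes, which are not independent, r between treatments was 0.70 to 0.80 for slide type 1 and 0.82 to 0.90 for slide type 2.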

How the data were processed

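The authors deposited log ratios of the 2 channels in a table per slide type (7680 probes and 12 arrays each), used here as a score, since the sources used here do not give log base, numerator, background correction or normalization. Spot intensities were not used, which leaves dim and saturated spots unmarked, and the number of arrays limits the precision. Array medians ran from −0.67 to 0.65 on slide type 1 and from −1.51 to 0.24 on slide type 2. Between treatments, arrays sharing a channel order had r as low as 0.29 on slide type 1 and −0.34 on slide type 2. Since the numerator is not stated, the direction is unsettled, and a turned sign would exchange the sides and keep each size.

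Each array was centred on its median, turned by channel order, and averaged within its order and then over orders to 1 value per treatment. All genes on probes with 1 symbol were fitted per slide type with limma 3.58.1 in R 4.3.3 (lmFit, eBayes, Benjamini-Hochberg at 0.05). The fit was run on simulated independent treatment values with each gene's SD. Of 100 genes changed by 0.5 units it called 80 on slide type 1 and 91 on slide type 2. Of unchanged genes it called 4 of 3638 and 8 of 3875. The simulation held no arrays, channel orders or centring, so it cannot judge calls that depend on these. A gene is the mean of its probes. In the replicate block fit, single arrays were fitted with a term for channel order and the treatment as a block, since the labels tie 4 arrays to each treatment. The consensus correlation within treatments was 0.065 on slide type 1 and −0.20 on slide type 2. A correlation near 0 counts arrays almost as independent, and a negative one narrows the standard error further. The calls of that fit are therefore no check with treatments as replicates. Other settings were single channel orders, arrays with or without the slide suffix, no centring, centring on probes with 1 symbol, the first probe of a gene, probes in place of genes, equal scales, a robust prior and leaving out each treatment. Members and lists were chosen with earlier results of these data known. Genes were named by rule: the 10 largest called per side and slide type, members on both slide types, the ends of each role class, members with probes over 0.5 units apart, and the 3 largest other traffic genes per side. Named after their values were seen were Ap1b1, Cltc, Cope, Golga3, Rab15, Rab1a, Rab1b, Rab3b, Rab5a, Rab7, Sar1a, Sec23ip, Sec24d, Sec31a, Snx4, Stx5a, Trappc1, Trappc12, Vps26a, Vps29 and Vps72. Figures were drawn with matplotlib 3.10.9.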

Additional observations from a re-analysis of the deposited data

Results flagged for a closer look

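Rab8a, of export to the cell surface, and Vps26c, a relative of the retromer subunit Vps26a, lay on opposite sides on the 2 slide types in all 3 treatments. How many of all 943 genes on both slide types did so was not counted. The mean had the same sign on both for 575 of them (61.0%). Rab8a had −0.18 for slide type 1 and 0.21 for slide type 2. By channel order Rab8a had 0.10 in order 1 and −0.47 in order 2 on slide type 1, and −0.01 in order 1 and 0.42 in order 2 on slide type 2, and the contrast of its means was seen in order 2 and not in order 1. Vps26c had −0.10 for slide type 1 and 0.14 for slide type 2, and did not pass limma's test on either. By channel order Vps26c had −0.06 in order 1 and −0.14 in order 2 on slide type 1. On slide type 2 it had −0.33 in order 1 and 0.61 in order 2. For Vps26c too, the contrast of the means was seen in order 2 and not in order 1. The slide types hold different probes, and the difference was not tested.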

How the results depend on the processing

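The positive calls of Tgoln1, Scfd1 and Tmed5 on slide type 1 were kept under 13 of 13 other settings, and that of Snx15 under 12 of 13. The positive count there (4) became 7 in order 1 alone, where 408 of all 3838 genes were called positive. The negative count of slide type 1 (1) became 0 on arrays with the suffix, 2 on arrays without it, 10 in order 1 alone, 4 in order 2 alone, 0 without centring and 7 with the replicate block, and ran from 0 to 3 with each treatment left out. Over all genes the negative count (217) became 75, 179, 431, 125, 5 and 473 in the same settings. It ran from 53 to 245 with each treatment left out. On slide type 2, positive calls (13) and negative calls (21) became 0 and 0 in either order alone and without centring, where 50, 24 and 141 of 4075 genes were called. Centring on probes with 1 symbol gave 27 positive and 15 negative calls, and 1249 and 861 over all genes. Leaving out each treatment gave 4 to 19 positive and 12 to 20 negative calls, against 293 to 983 and 934 to 1226 over all genes. The replicate block gave 13 and 27, against 718 and 1446 over all genes. In order 1 alone, 14 of the 34 called members of slide type 2 lay on the other side. They were 0.0687 for Ap1g1, 0.0457 for Golga2, 0.0189 for Rab11a, 0.28 for Rab6a, −0.0094 for Rab8a, −0.23 for Snx21, 0.0298 for Tmed10, 0.0461 for Tmed7, −0.12 for Trappc11, −0.25 for Rab3b, −0.12 for Trappc12, −0.08 for Golga3, 0.06 for Vps29 and 0.0056 for Sec23ip. On slide type 1, Snx13 was −0.35 in order 1 alone and Rab14 0.0137 without centring. Leaving the arrays uncentred moved the median of all genes to 0.27 on slide type 1 and 0.03 on slide type 2. The cause of these shifts was not tested. Signal over background is unknown here, so no limit of detection can be given.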
